A study of Mus musculus with 4 samples.

Results

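The genes described here are 47 protein-coding genes that control autophagy and the lysosome, chosen by name for their place in the pathway, with no threshold on measured values. The choice was made with earlier results of these data known. The study's own ontology analysis of these peaks had listed autophagy among the functions found with FGF19 only. All 47 were found in the GENCODE M1 annotation of the mouse genome (mm9), 4 of them under an older symbol. They are 47 of the 22367 protein-coding genes of that annotation. A gene was counted as having an SHP peak when the interval of a peak lay within 5 kb of its annotated gene body. Livers of male wildtype C57BL/6 mice aged 8 to 12 weeks were collected 2 h after an injection into the tail vein of either vehicle or FGF19 at 1 mg/kg, and all mice had been fasted for 12 h. SHP was precipitated from liver chromatin with an antibody, and material of 3 mice was pooled, so that each group is 1 SHP ChIP library with its own input library and no animal can be told from another. No difference between the groups was tested, because a single library per group carries no measure of replicate spread. No RNA data were analysed here, so the labelled tissue was not checked against expressed markers.

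Autophagy delivers parts of the cytoplasm to the lysosome. The ULK kinase complex starts the process, a class III PI3-kinase complex marks the membrane, and WIPI, ATG2, ATG9 and VMP1 proteins supply and shape it. A ubiquitin-like conjugation system, with ATG7, ATG10, ATG3 and the ATG12-ATG5-ATG16L1 complex, then attaches LC3 and GABARAP proteins (the ATG8 family) to the membrane, and the loaded vesicle fuses with the lysosome, where cathepsins degrade its content. The liver uses autophagy in fasting, and the kinase mTORC1 and the transcription factors TFEB and TFE3 switch it off and on with nutrient state. FGF19 is a hormone of the fed state, released by the intestine, and SHP (NR0B2) is a nuclear receptor without a DNA-binding domain that represses genes through proteins that hold it on chromatin.

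The peak caller kept 15473647 SHP ChIP tags of the vehicle group and 13444078 of the FGF19 group, and the lists hold 1508 and 3155 peaks. The longer list thus came from the library with fewer tags. For each peak the lists give the pileup (extended ChIP tags over the summit), the fold enrichment, which is that pileup over the input background nearby, and the q-value on a -log10 scale. The lists end at a q-value of 0.05, and signal below it was not analysed here. Wilson 95% intervals for shares and exact Poisson 95% intervals for pileups cover counting error only.

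Of the 47 genes, 9 had an SHP peak with vehicle and 20 with FGF19. The share was 19.1% with vehicle (Wilson interval 10.4 to 32.5) beside 7.93% of all protein-coding genes, and 42.6% with FGF19 (29.5 to 56.7) beside 16.3% of all protein-coding genes. Both shares of the autophagy and lysosome genes were above the background share of their own list, and the background also rose with the longer FGF19 list. With only the top 1508 FGF19 peaks by q-value, which makes both lists equally long, 9 members had a peak with FGF19, as many as with vehicle, beside 8.02% of all protein-coding genes. The members were also longer than most genes, with a median length of 36.7 kb beside 15.4 kb. Among genes of at least the median length, 13 of 35 members (37.1%) had a peak with FGF19 beside 20.1% of all genes of that class, and among shorter genes 7 of 12 (58.3%) beside 12.5%. Of these 7 shorter members, only Map1lc3b and Gabarapl1 had a summit within 1 kb of their own transcription start site. Atg12 and Gabarap were counted through a peak outside the gene, and Sqstm1, Tfe3 and Ctsl through a peak in an exon.

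Peaks were found at 7 members in both groups: Atg5, Atg12, Gabarapl1, Sqstm1, Tfeb, Lamp1 and Ctsb. The background for both groups was 4.31% of all protein-coding genes. Atg2a and Ctsd had a peak with vehicle only (background 3.62%). The 13 members with a peak with FGF19 only (background 12.0%) were Rb1cc1, Uvrag, Ambra1, Wipi1, Wipi2, Vmp1, Atg3, Atg4b, Atg10, Map1lc3b, Gabarap, Tfe3 and Ctsl. At equal list length these counts were 5 with FGF19 only and 5 with vehicle only, and with a minimum fold enrichment of 4 they were 7 and 4. The same counts over all protein-coding genes were not made under these settings, so the backgrounds above do not apply to them. No peak of either list lay within 5 kb of the other 25. Without a peak at a q-value of 0.05 a gene may still have carried SHP signal under that limit, and presence in 1 list alone is not a tested difference.

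**Figure D1:**
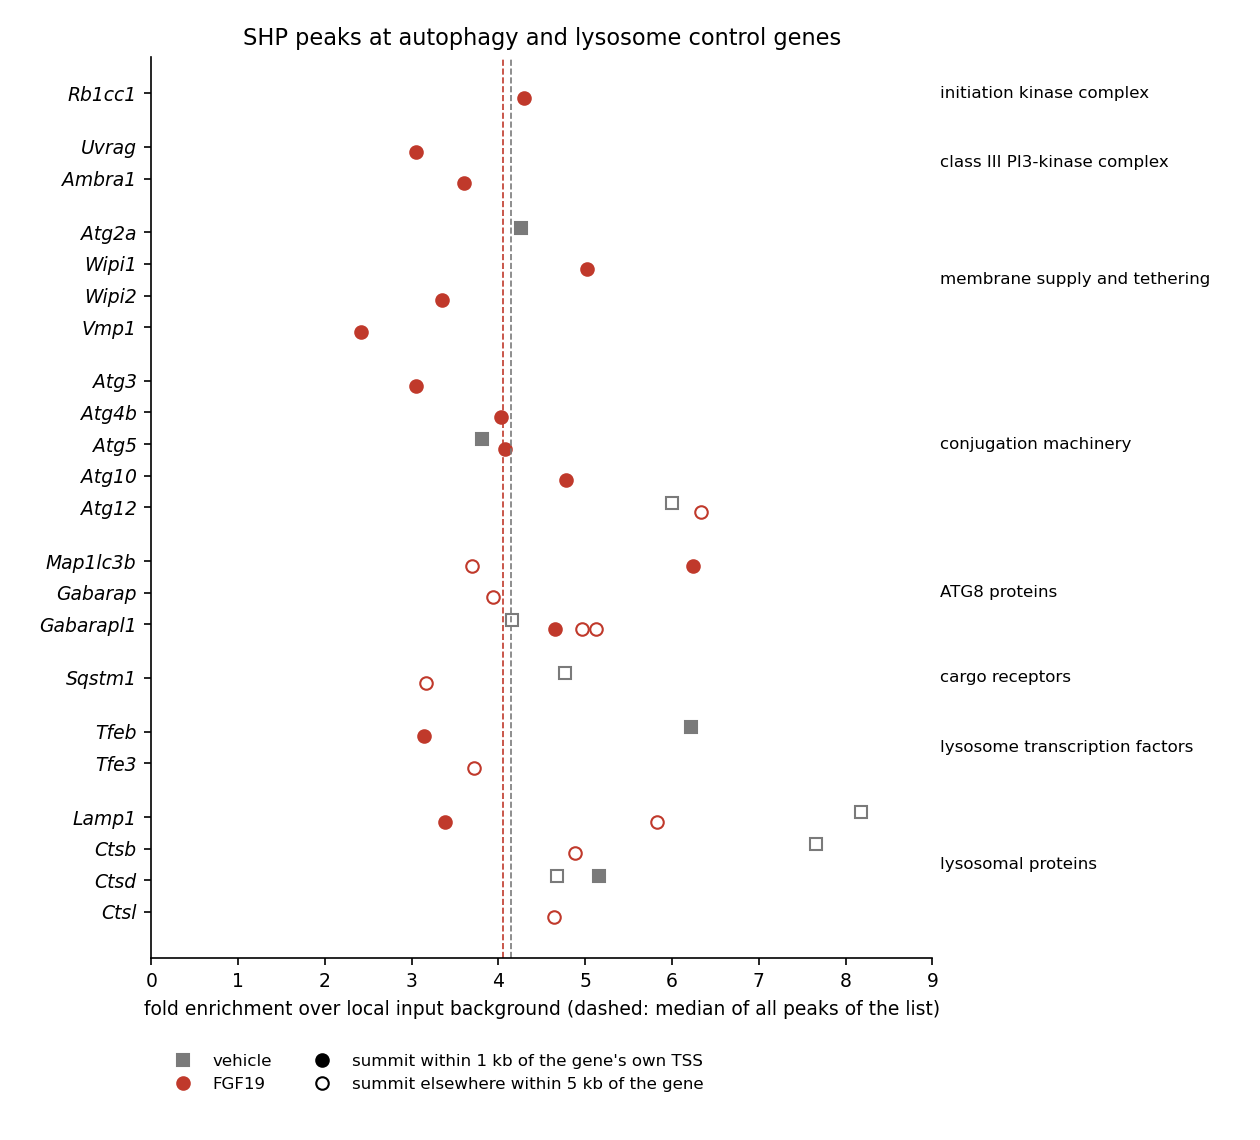
Fold enrichment over local input background (x axis) of every SHP peak within 5 kb of the 22 autophagy and lysosome genes that had one, with vehicle (grey squares) and FGF19 (red circles), ordered by role. Filled marks are summits within 1 kb of the gene's own transcription start site (TSS), open marks lie elsewhere, and dashed lines are the medians of the whole lists, 4.14 with vehicle and 4.05 with FGF19; the 4 highest vehicle marks (Lamp1, Ctsb, Tfeb and Atg12) lie above 6.

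A summit within 1 kb of the gene's own TSS was found for 4 members with vehicle (8.51%, beside 5.53% of all protein-coding genes) and for 14 members with FGF19 (29.8%, beside 12.5%). The 4 with vehicle were Atg2a, Atg5, Tfeb and Ctsd. Distances to a gene's own TSS are to the nearest of its annotated starts, which can lie inside the gene. The 14 with FGF19 all lay within 250 bp of a TSS of the member, 9 downstream of it and 5 upstream. Of these, 5 also lay within 1 kb of a TSS of a neighbouring gene, namely 4732440D04Rik beside Rb1cc1, Ptrh2 beside Vmp1, Slc35a5 beside Atg3, Thap4 beside Atg4b and 1700101I11Rik beside Gabarapl1. At such shared promoters a peak could not be assigned to one gene rather than the other.

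The initiation kinase complex phosphorylates the first autophagy factors, and 1 of its 5 genes had a peak (Wilson interval 3.62 to 62.4). The share of all protein-coding genes with a peak in either list was 19.9%. It is the background for the counts by role below, whose intervals are wide, and differences between roles were not tested. Rb1cc1, which codes for the scaffold protein FIP200, had a peak with FGF19 at chr1:6204716-6205007. Its summit at 6204757 lay 13 bp downstream of a TSS, in a 5' UTR exon, with a pileup of 20 tags, a fold enrichment of 4.29 and a -log10 q of 4.95. That TSS lies inside the annotated gene, 12.0% along its length. The kinases Ulk1 and Ulk2 and the subunits Atg13 and Atg101 had no peak in either list.

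Of the 6 genes of the class III PI3-kinase complex, Uvrag and Ambra1 had a promoter peak, both with FGF19 only. Uvrag, which codes for a Beclin 1 partner, had a peak at chr7:106289675-106289989 with the summit at 106289776, 122 bp upstream of the TSS. Its pileup was 28 tags, the fold enrichment 3.05 and the -log10 q 3.79, one of the 3 lowest fold enrichments among the members with an FGF19 peak only. At Ambra1, whose product regulates Beclin 1, the summit lay 173 bp downstream of the TSS with a pileup of 23 tags and a fold enrichment of 3.61. The core subunits Becn1, Pik3c3, Pik3r4 and Atg14 had no peak in either list.

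Membrane supply and tethering was the group with a promoter peak at 4 of 7 genes, 3 with FGF19 and 1 with vehicle. Over all protein-coding genes, 12.5% had a summit within 1 kb of a TSS with FGF19 and 5.53% with vehicle. Wipi1, which codes for a phosphoinositide-binding protein of the growing membrane, had an FGF19 peak at chr11:109472832-109473318. Its summit at 109473071 lay 210 bp downstream of the TSS in an intron, with the highest pileup of all member peaks, 39 tags (Poisson interval 27.7 to 53.3), a fold enrichment of 5.02 and a -log10 q of 12.3. The sequence within 50 bp of this summit is shown because it holds the motif of SP1, a promoter factor of GC-rich DNA, at 2 places (chr11:109473021-109473121, mm9, minus strand, 5' to 3', motifs in capitals).

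Wipi1 summit, FGF19: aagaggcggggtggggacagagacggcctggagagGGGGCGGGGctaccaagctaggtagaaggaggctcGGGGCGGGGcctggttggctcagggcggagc

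At Wipi2, a paralog of Wipi1, the FGF19 summit lay 127 bp upstream of the TSS with a pileup of 24 tags and a fold enrichment of 3.35. Vmp1, which codes for a membrane protein of the endoplasmic reticulum, had the lowest fold enrichment of all member peaks. Its FGF19 peak at chr11:86497032-86497475 had the summit at 86497126, 197 bp downstream of the TSS, with a pileup of 22 tags, a fold enrichment of 2.42 and a -log10 q of 1.43. This was the one member peak of either list that a q-value limit of 0.01 removed. Atg2a, whose product moves lipid into the growing membrane, went the other way, with a vehicle peak at chr19:6242320-6242704 and none with FGF19. Its summit at 6242501 lay 833 bp downstream of the TSS, with a pileup of 17 tags, a fold enrichment of 4.26 and a -log10 q of 3.89. Atg2b, Atg9a and Epg5 had no peak in either list.

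The conjugation machinery had a peak at 5 of its 10 genes, and every one of the 5 had it with FGF19. Atg5, the part of the ATG12-ATG5 conjugate that receives ATG12, was the member with a promoter peak of nearly the same height in both groups. The vehicle peak lay at chr10:43988229-43988468 with the summit at 43988403, 239 bp downstream of the TSS, a pileup of 23 tags, a fold enrichment of 3.81 and a -log10 q of 4.43. With FGF19 it lay at chr10:43988207-43988485 with the summit at 43988288, 124 bp downstream, a pileup of 22 tags, a fold enrichment of 4.08 and a -log10 q of 5.01. The Poisson intervals of the unscaled pileups, 14.6 to 34.5 and 13.8 to 33.3, overlapped almost wholly, which is not a test of a difference.

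Atg12, the ubiquitin-like protein joined to ATG5, had the highest fold enrichment of any member with FGF19, but its peak was not at its own promoter. The vehicle peak at chr18:46887640-46888015 (summit 46887791, pileup 28 tags, fold enrichment 6.01, -log10 q 10.9) and the FGF19 peak at chr18:46887552-46888147 (summit 46887742, pileup 29 tags, fold enrichment 6.34, -log10 q 12.0) lay 4056 and 3924 bp past the 3' end of Atg12. The summits were 205 and 254 bp from the TSS of Cdo1, which codes for the cysteine-degrading enzyme cysteine dioxygenase, and 13442 and 13491 bp from that of Atg12. The Atg12 call therefore rests on the window of 5 kb, and its gene body held no peak.

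Atg10, which codes for the E2-like enzyme that conjugates ATG12, had an FGF19 peak at chr13:91363326-91363663. Its summit at 91363517 lay 75 bp downstream of the TSS, with a pileup of 26 tags, a fold enrichment of 4.78 and a -log10 q of 7.57. Atg3, which codes for the E2-like enzyme for ATG8 proteins, had an FGF19 peak at chr16:45158761-45159234, with the summit at 45158783, a pileup of 28 tags, a fold enrichment of 3.05 and a -log10 q of 3.79. Its summit lay 115 bp upstream of the Atg3 TSS and 36 bp from that of Slc35a5, so the nearest start was the neighbour's. At Atg4b, which codes for a protease that trims ATG8 proteins, the summit lay 52 bp upstream of a TSS inside the annotated gene and 15 bp from that of Thap4, with a pileup of 28 tags and a fold enrichment of 4.03. Atg4a, Atg4c, Atg4d, Atg7 and Atg16l1 had no peak in either list.

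Of the 5 ATG8 genes, Map1lc3b, Gabarap and Gabarapl1 had a peak, all with FGF19 (background 16.3%), and Gabarapl1 with vehicle as well (background 7.93%). Map1lc3b, which codes for LC3B, the protein used to mark autophagosomes, had the highest promoter fold enrichment among members with an FGF19 peak only. The peak at chr8:124114117-124114583 had its summit at 124114294, 74 bp upstream of the TSS, a pileup of 38 tags (Poisson interval 26.9 to 52.2), a fold enrichment of 6.24 and a -log10 q of 15.5. A second FGF19 peak lay at chr8:124109172-124109617, 4978 bp upstream of the TSS, with a pileup of 37 tags but a local background of 9.29 tags, so that its fold enrichment was 3.69. The sequence within 50 bp of the promoter summit is shown because it is the highest -log10 q of any member peak and held none of the motifs searched (chr8:124114244-124114344, mm9, plus strand).

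Map1lc3b summit, FGF19: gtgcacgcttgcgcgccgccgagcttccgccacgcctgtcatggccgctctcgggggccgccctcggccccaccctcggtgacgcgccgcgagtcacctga

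Gabarapl1, a GABARAP paralog, had 1 peak with vehicle and 3 with FGF19. The vehicle peak lay in the 3' UTR exon at chr6:129491304-129491901 (summit 129491461), with a pileup of 20 tags, a fold enrichment of 4.15 and a -log10 q of 4.44. The nearest FGF19 peak, at chr6:129491272-129491562 (summit 129491403), had a pileup of 19 tags, a fold enrichment of 4.97 and a -log10 q of 5.87. A further FGF19 peak lay in the same exon at chr6:129491747-129492178 (summit 129491957), with a pileup of 20 tags, a fold enrichment of 5.13 and a -log10 q of 6.44. The promoter peak was in the FGF19 list only, at chr6:129483265-129483654 with the summit at 129483420, 202 bp downstream of the TSS, a pileup of 21 tags, a fold enrichment of 4.65 and a -log10 q of 5.87. Gabarapl1 was thus counted for both groups through its 3' end, while its promoter was called with FGF19 alone. At Gabarap the FGF19 summit lay past the 3' end of the gene, with a pileup of 26 tags and a fold enrichment of 3.94. It was 11 bp from the TSS of Phf23 and 3959 bp from the nearest TSS of Gabarap. Map1lc3a and Gabarapl2 had no peak in either list.

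Among the 3 cargo receptors, which tie cargo to ATG8 proteins, Sqstm1 (p62) had a peak in both groups, and Nbr1 and Optn had none. Neither Sqstm1 peak was at its promoter. The vehicle peak at chr11:50013865-50014414 had its summit at 50014265 in a coding exon, 2191 bp downstream of a TSS inside the gene. Its pileup was 23 tags, its fold enrichment 4.77 and its -log10 q 6.52. The FGF19 peak at chr11:50013887-50014267 had its summit at 50014096 in the 3' UTR exon, 2360 bp downstream of that TSS. Its pileup was 22 tags, its fold enrichment 3.17 and its -log10 q 3.10. The vehicle and FGF19 summits lay 87.8% and 89.3% along the gene. The pileups differed by 1 tag, and the local input background was 4.03 tags with vehicle and 6.26 with FGF19.

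Tfeb and Tfe3, the transcription factors of lysosome and autophagy genes, both had a peak with FGF19, and Tfeb had a separate peak with vehicle. The vehicle peak of Tfeb, at chr17:47873700-47874023 with the summit at 47873860, lay 119 bp upstream of the 5' end of the gene, with a pileup of 21 tags, a fold enrichment of 6.22 and a -log10 q of 8.64. The FGF19 peak lay at chr17:47874569-47874830 with the summit at 47874621, 72 bp downstream of a TSS inside the gene, in a 5' UTR exon, with a pileup of 24 tags, a fold enrichment of 3.14 and a -log10 q of 3.35. The summits were 761 bp apart and the intervals shared no base, so Tfeb was the one member with a peak in both groups whose peaks did not overlap. The GC content within 100 bp of the summit was 51.2% at the vehicle peak and 71.6% at the FGF19 peak. The sequence around the vehicle summit is shown because SHP was called there with vehicle and not with FGF19 (chr17:47873810-47873910, mm9, plus strand). At Atg5, Gabarapl1, Sqstm1, Lamp1 and Ctsb, and at the FGF19 peak of Tfeb, the window held annotated UTR bases and is not printed.

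Tfeb summit, vehicle: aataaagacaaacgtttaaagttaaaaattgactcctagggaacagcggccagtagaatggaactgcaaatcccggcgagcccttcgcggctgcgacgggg

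At Tfe3 the FGF19 summit lay in an exon of a non-coding transcript, with a pileup of 17 tags and a fold enrichment of 3.72. It was 1223 bp downstream of a TSS inside the gene and 26.2% along the gene's length.

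The lysosomal proteins were the group with the most vehicle peaks, at 3 of 5 genes (Wilson interval 23.1 to 88.2, beside 7.93% of all protein-coding genes). They also had the highest fold enrichments of the vehicle member peaks. Lamp1, which codes for an abundant glycoprotein of the lysosomal membrane, had the highest fold enrichment of any member peak, 8.17, at its 3' end with vehicle. That peak lay at chr8:13174841-13175220 with the summit at 13175007 in the 3' UTR exon, a pileup of 26 tags and a -log10 q of 14.4. With FGF19 the peak in this exon, at chr8:13174385-13175207 with the summit at 13174892, had a pileup of 16 tags, a fold enrichment of 5.83 and a -log10 q of 6.31. The Poisson intervals of these unscaled pileups, 17 to 38.1 and 9.15 to 26.0, overlapped, which does not show that the groups were alike. A promoter peak was in the FGF19 list only, at chr8:13159073-13159512 with the summit at 13159319, 184 bp downstream of the TSS, a pileup of 26 tags, a fold enrichment of 3.39 and a -log10 q of 4.33. Lamp1, like Gabarapl1, was called at its 3' end in both groups and at its promoter with FGF19 alone.

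Ctsb, which codes for the protease cathepsin B, had a peak in its 3' UTR exon in both groups. With vehicle it lay at chr14:63761207-63761850 (summit 63761730), with a pileup of 22 tags, a fold enrichment of 7.66 and a -log10 q of 11.6. With FGF19 it lay at chr14:63761369-63761711 (summit 63761534), with a pileup of 19 tags, a fold enrichment of 4.88 and a -log10 q of 5.72. The summits were 20428 and 20232 bp from the TSS. Ctsl, which codes for cathepsin L, had an FGF19 peak in a coding exon near its 3' end, at chr13:64465229-64465488 with the summit at 64465414, 6200 bp downstream of the TSS, a pileup of 18 tags, a fold enrichment of 4.64 and a -log10 q of 5.03.

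Ctsd, which codes for cathepsin D, had 2 peaks with vehicle and none with FGF19. The promoter peak at chr7:149573520-149573903 had its summit at 149573698, 26 bp downstream of a TSS, with a pileup of 22 tags, a fold enrichment of 5.16 and a -log10 q of 7.0. The other, at chr7:149562248-149562493, had its summit at 149562277 in a UTR exon, 69.1% along the gene and 6295 bp downstream of a different TSS inside it. This peak had the smallest pileup of all member peaks, 13 tags, with a fold enrichment of 4.68 and a -log10 q of 3.54. Its local background of 1.99 tags was the lowest value in the vehicle list. Lamp2 had no peak in either list.

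The genes of mTORC1, which holds autophagy back when nutrients are present, and of the TSC complex, which inhibits mTORC1, were the one role group without a peak in either list. These 4 genes were Mtor, Rptor, Tsc1 and Tsc2, and 0 of 4 allows a share of up to 49.0% (Wilson), beside 19.9% of all protein-coding genes.

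**Figure D2:**
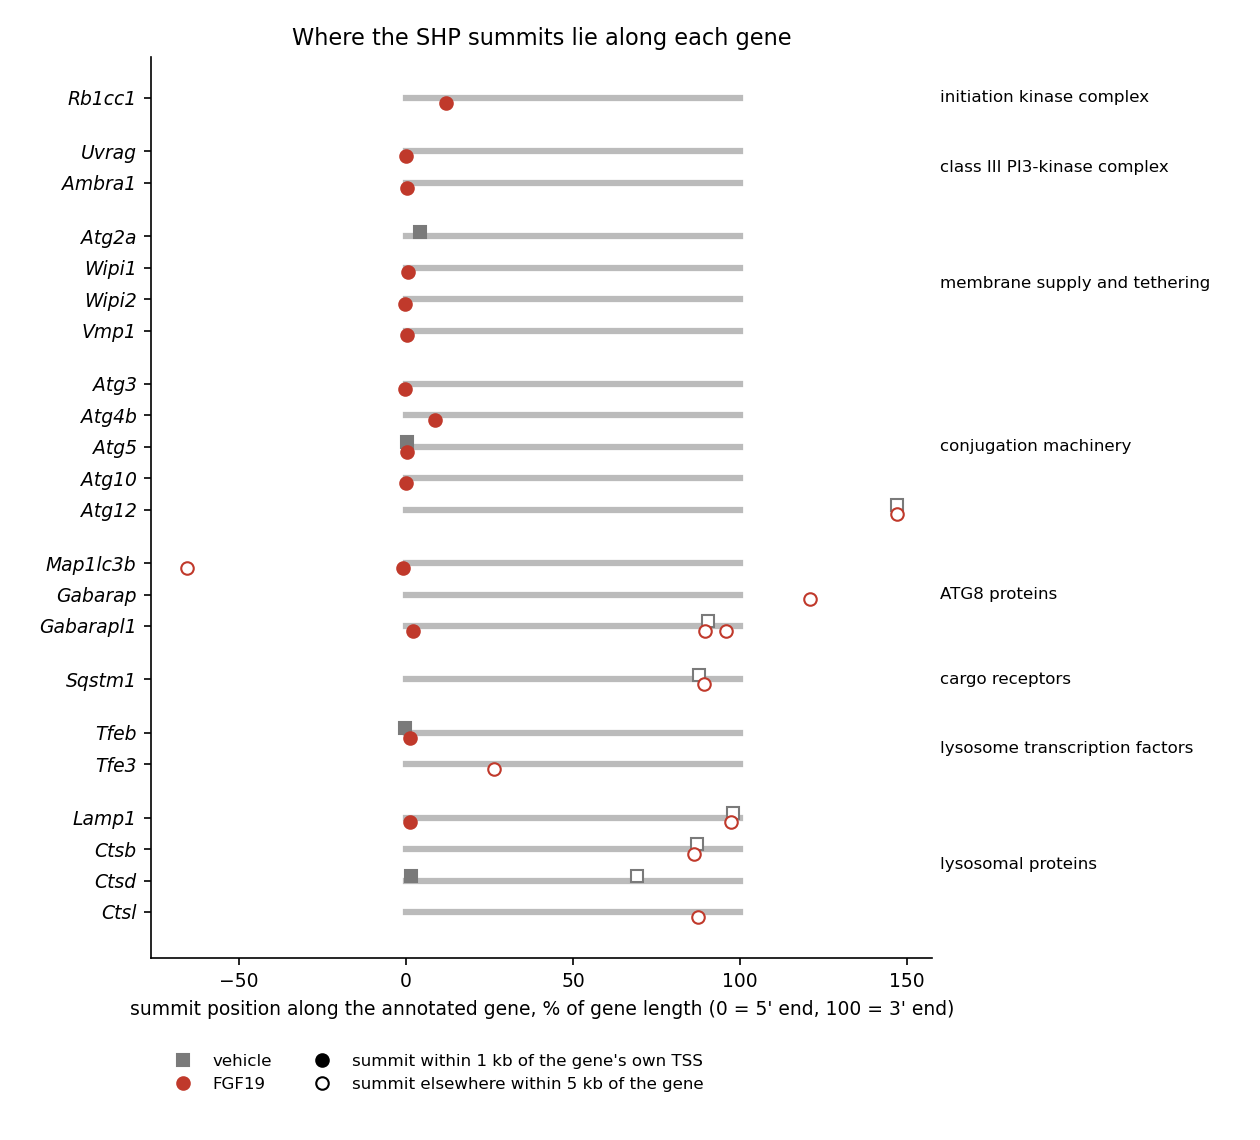
Position of each SHP summit along its gene, in percent of the annotated gene length (0 is the 5' end, 100 the 3' end, and marks outside the grey bar lie outside the gene), with vehicle (grey squares) and FGF19 (red circles). Filled marks are within 1 kb of a TSS of the gene and sit near 0, except at Rb1cc1 (12.0 percent) and Atg4b (8.76 percent), where that TSS lies inside the gene, while Gabarapl1, Sqstm1, Lamp1, Ctsb and Ctsl have marks between 86.3 and 98.0 percent.

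The member peaks comprised 10 peaks with vehicle and 24 with FGF19. Their summits lay within 1 kb of a TSS of any gene in 5 of 10 cases with vehicle (50%, Wilson interval 23.7 to 76.3) beside 72.7% of the vehicle list, and in 16 of 24 with FGF19 (66.7%, 46.7 to 82.0) beside 81.8% of the FGF19 list. The other peaks lay mostly in exons away from every TSS. Such exon peaks were 5 of 10 with vehicle (50%, 23.7 to 76.3) beside 17.5% of the list (15.7 to 19.5), and 7 of 24 with FGF19 (29.2%, 14.9 to 49.2) beside 8.70% (7.77 to 9.74). The exon peaks of both groups came largely from the same genes, Gabarapl1, Sqstm1, Lamp1 and Ctsb, and Gabarapl1 gave 2 of the 7 with FGF19. In the last 15% of the gene lay 4 of the 5 exon peaks with vehicle and 6 of the 7 with FGF19. The same was true of 62.1% and 61.9% of all exon peaks away from a TSS that lay in a protein-coding gene, so a place near the 3' end was common to exon peaks of both lists.

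Of the 7 members with a peak in both groups, 4 had an exon peak away from every TSS (Gabarapl1, Sqstm1, Lamp1 and Ctsb), and of the 13 with FGF19 only, 2 had one (Tfe3 and Ctsl) while 10 had a peak at their own promoter. Ctsd was the 1 of 2 members with vehicle only that had an exon peak. Over the whole lists, exon peaks were 177 of the 686 vehicle peaks that an FGF19 peak overlapped (25.8%), also more than their share of either list. When the exon peaks were left out of both lists, an alternative chosen after seeing the data, 5 members kept a peak with vehicle and 16 with FGF19, beside 7.02% and 15.4% of all protein-coding genes.

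Pileup and fold enrichment ranked the member peaks differently. With vehicle, 9 of 10 member peaks had a fold enrichment above the list median of 4.14, yet only 2 of 10 had a pileup above the list median of 24 tags. The median fold enrichment was 4.97 for the vehicle member peaks, with a median pileup of 22.0 tags and a median local background of 3.34 tags beside 4.84 for the list. With FGF19, 12 of 24 lay above the list median of fold enrichment, and the medians of members and list were both 4.05. The FGF19 exon peaks of members had a median pileup of 19 tags over a background of 3.10 tags, and their promoter peaks 26.0 tags over 6.02 tags, so that the exon peaks had the higher fold enrichment (4.88 beside 3.99) with the lower pileup. In the whole FGF19 list the medians were 25 tags over 3.90 for exon peaks and 24 over 5.42 for promoter peaks.

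**Figure D3:**
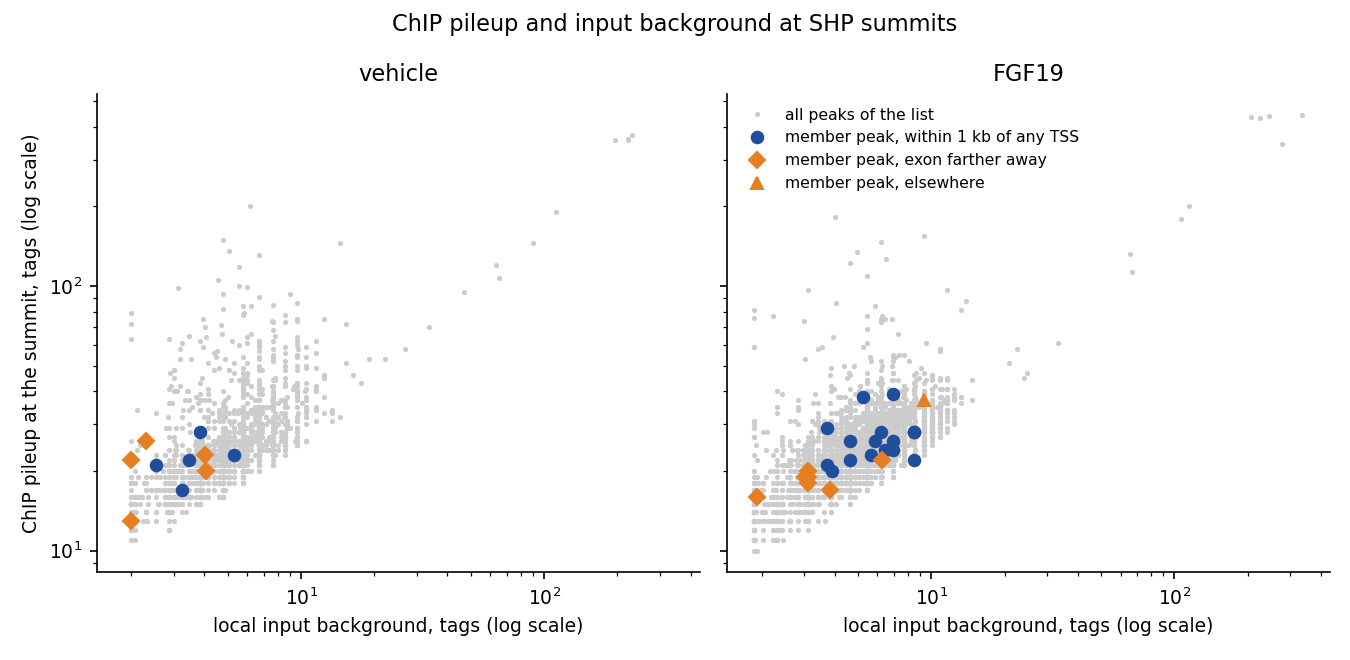
ChIP pileup at the summit (y axis, tags, log scale) against the local input background (x axis, tags, log scale) for all peaks (grey dots, mitochondrial peaks left out) and for member peaks within 1 kb of any TSS (blue circles), in exons farther away (orange diamonds) or elsewhere (orange triangle). The FGF19 exon peaks of members lie at 16 to 22 tags and all but that of Sqstm1 at a background under 4, and the promoter peaks at 20 to 39 tags.

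At the 7 members with peaks in both groups, fold enrichment was higher with vehicle in 4 and with FGF19 in 3. The log2 ratio of fold enrichment, FGF19 over vehicle, was 0.10 at Atg5, 0.08 at Atg12 and 0.26 at Gabarapl1. It was -0.59 at Sqstm1, -0.99 at Tfeb, -0.49 at Lamp1 and -0.65 at Ctsb. Each ratio compares 1 library with 1 other, the Atg12 pair lies at the Cdo1 promoter, and a split of the signs by role was not tested. The pileup scaled to the ChIP tags kept in each library gave another picture, with a log2 ratio of 0.14 at Sqstm1, 0.39 at Tfeb and -0.01 at Ctsb. At Lamp1 it was -0.50, and at the 3 members with a fold enrichment ratio above 0 it lay between 0.13 and 0.25. The scaled pileup was not corrected for the tag extension, 240 bp with vehicle and 260 bp with FGF19. A longer extension raises the pileup from the same tags, so small scaled ratios above 0 cannot be read as more SHP with FGF19. Over all 686 vehicle peaks that an FGF19 peak overlapped, the median log2 ratio was -0.01 for fold enrichment (quartiles -0.36 and 0.32) and 0.20 for scaled pileup (quartiles -0.02 and 0.44). Fold enrichment was higher with FGF19 in 336 of those regions (49.0%). The fold enrichment ratios of Atg5, Atg12 and Gabarapl1 lay between the quartiles. Those of Sqstm1, Tfeb, Lamp1 and Ctsb were below the lower quartile, and that of Tfeb compares summits 761 bp apart.

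**Figure D4:**
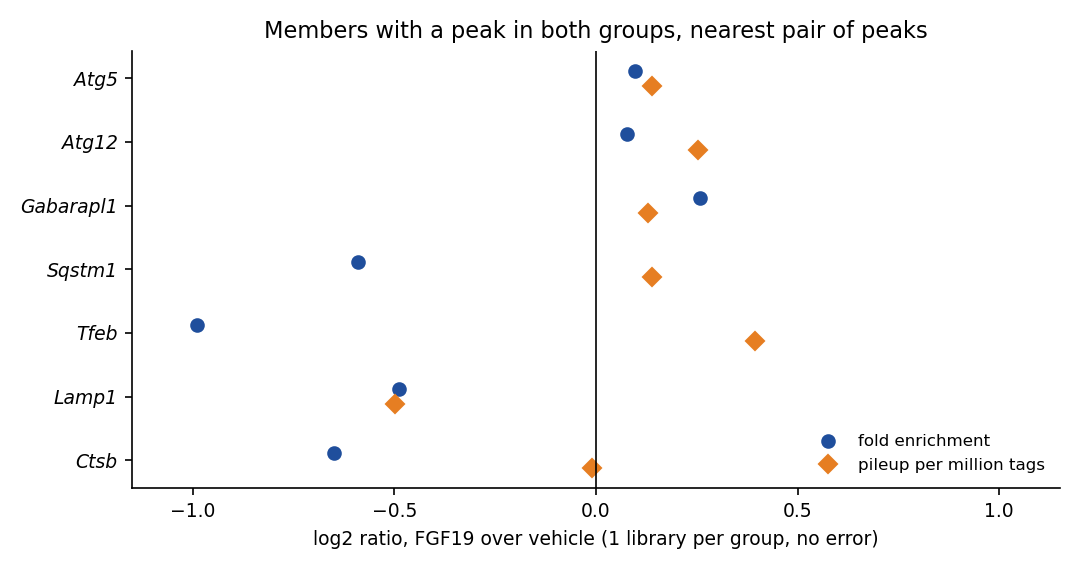
Log2 ratio of FGF19 over vehicle (x axis) for fold enrichment (blue circles) and pileup scaled to the ChIP tags kept (orange diamonds) at the 7 members with a peak in both groups, each taken at the nearest pair of summits. The scaled pileup is not corrected for the tag extension, 240 bp with vehicle and 260 bp with FGF19. There is no error since each group is 1 library; at Sqstm1, Tfeb and Ctsb the fold enrichment ratio lies between -0.99 and -0.59 while the pileup ratio lies between -0.01 and 0.39.

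Exact matches to 8 motifs were counted on both strands within 100 bp of each summit. The motifs were SP1 (CCCCGCCCC), NF-Y (ATTGGC), YY1 (AANATGGC), NRF1 (CGCATGCGC), ZBTB33 (CTCGCGAG), the E-box bound by TFEB and TFE3 (TCACGTG), the SREBP site (TCACNCCAC) and the nuclear receptor half-site (AGGTCA). At least 1 of them was found at 10 of 24 member peaks with FGF19 (41.7%, beside 40% of the list) and at 1 of 10 with vehicle, the 3' end peak of Gabarapl1 (beside 42% of the list). The lists were thus alike in this share, as were their shares of SP1 (13.1% with vehicle and 14.8% with FGF19) and NF-Y (11.2% and 11.1%). With FGF19, SP1 was found at 4 member peaks (16.7%, beside 14.8% of the list and 11.9% of all promoters of the same length). NF-Y was found at 3 (12.5%, beside 11.1% and 12.0%) and YY1 at 1 (4.17%, beside 7.56% and 5.72%). The E-box was found at 2 (8.33%, beside 3.62% and 3.17%) and the half-site at 2 (8.33%, beside 7.15% and 8.90%), while NRF1, ZBTB33 and SREBP matched none. With so few peaks 1 match moves a share by several percentage points.

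The 2 member peaks with the TFEB/TFE3 E-box were at the promoters of Atg3 and Lamp1, and both held it at 2 places. The sites are shown with up to 10 bases on either side because they are the letters bound by the factors whose own genes, Tfeb and Tfe3, are among the members (mm9, plus strand, motif in capitals, the eighth capital letter being the overlapping match on the other strand). At Atg3 they began 51 and 28 bp upstream of the TSS (chr16:45158837-45158863 and chr16:45158860-45158883), and at Lamp1 85 and 112 bp downstream of it (chr8:13159219-13159237 and chr8:13159237-13159264).

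Atg3, 51 bp upstream: cctccttttgTCACGTGtcctgggaga

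Atg3, 28 bp upstream: gagagtcgagTCACGTGAggcctt

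Lamp1, 85 bp downstream: cTCACGTGAccggcgggcg

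Lamp1, 112 bp downstream: gcggcactgcTCACGTGAcaggcgctgc

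The nuclear receptor half-site was found at the promoter peaks of Vmp1 and Atg10, beginning 10 bp after the summit at Vmp1 (chr11:86497101-86497126) and 47 bp before it at Atg10 (chr13:91363549-91363574). Both are given on the minus strand, as the letters nearest to a nuclear receptor site at these genes.

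Vmp1 half-site: gagatggctcAGGTCActgctgactg

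Atg10 half-site: cgccggctccAGGTCAgggcgagcga

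SP1 matches lay at Wipi1, Atg4b, Atg10 and Tfeb, and the NF-Y matches at Uvrag, the upstream peak of Map1lc3b and the 3' end of Gabarapl1. Atg4b held both SP1 and YY1, beginning 3 and 72 bp before the summit. A match is a description of the letters and does not show that the factor was bound. The GC content within 100 bp of the summit had a median of 69.4% (range 61.7 to 81.6) at the 16 FGF19 member peaks near a TSS and of 54.7% (47.3 to 59.2) at the other 8, with no overlap between them. For the vehicle member peaks it was 63.7% (51.2 to 71.6) near a TSS and 51.2% (44.3 to 61.2) elsewhere, with overlapping ranges. The medians of the lists were 68.2% with FGF19 and 63.7% with vehicle.

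The other genes of the pathway were counted in the same way over a list of 95 genes. Of these, 10 had a peak with vehicle (10.5%, Wilson interval 5.82 to 18.3) and 28 with FGF19 (29.5%, 21.2 to 39.3). The shares of all protein-coding genes were 7.93% and 16.3%. Peaks were in both groups at 3 genes (background 4.31%), with vehicle only at 7 (3.62%) and with FGF19 only at 25 (12.0%). A summit within 1 kb of their own TSS was found for 10.5% with vehicle and 25.3% with FGF19. These shares stood beside 8.51% and 29.8% of the members and 5.53% and 12.5% of all protein-coding genes. Peaks in exons away from every TSS were 3 of 30 (10.0%) with FGF19, beside 8.70% of the list, at these genes. With vehicle they were 1 of 12 (8.33%), beside 17.5%.

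**Figure D5:**
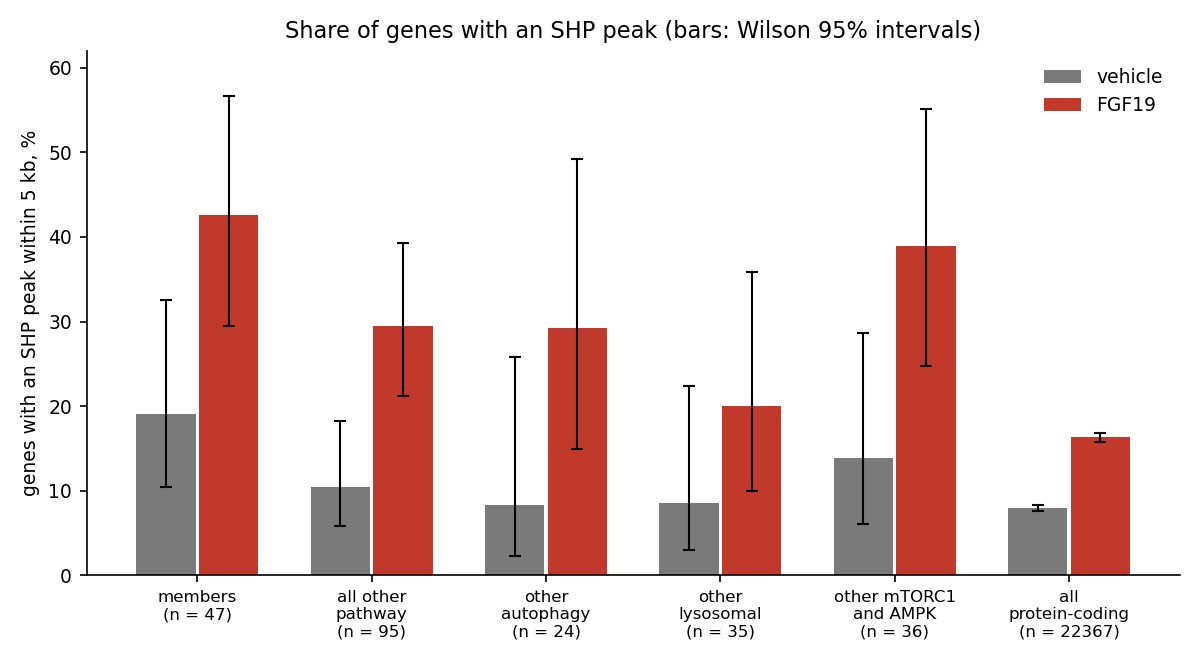
Percent of genes with an SHP peak within 5 kb (y axis) with vehicle (grey) and FGF19 (red) for the 47 members, the 95 other pathway genes and their 3 groups, and all 22367 protein-coding genes; bars show Wilson 95% intervals for counting error. In every set the FGF19 bar is the taller, and with FGF19 the members (42.6%) and the other mTORC1 and AMPK genes (38.9%) are the highest.

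Among 24 other autophagy genes, 2 had a peak with vehicle (8.33%, beside 7.93% of all protein-coding genes) and 7 with FGF19 (29.2%, beside 16.3%). With FGF19 the highest fold enrichments were at Vamp8 (4.32), a SNARE of vesicle fusion, Wdfy3 (3.93) and Sh3glb1 (3.89). The Vamp8 peak of that height lay 27 bp from the TSS of the neighbouring Vamp5 and 4588 bp outside Vamp8, whose own promoter peak had a fold enrichment of 4.18. The mitophagy receptor Bnip3l (4.69) and the kinase Tbk1 (3.89) had a peak with vehicle only. Among 35 other lysosomal genes, 3 had a peak with vehicle (8.57%) and 7 with FGF19 (20.0%), both shares close to those of all protein-coding genes. The highest with FGF19 were Psap (6.26, in its 3' UTR exon), Gusb (5.13) and Tmem192 (4.41). Npc2 (4.86), a cholesterol carrier, and the enzyme Glb1 (3.52) had one with vehicle only, the Npc2 summit also within 1 kb of a TSS of Isca2. Grn had one in both groups, at 5.35 with vehicle and 4.38 with FGF19 in its highest peaks. These 2 Grn peaks lay outside the gene, 720 and 929 bp past its 3' end, and the nearest TSS was that of Fam171a2. A peak at a TSS of Grn itself (3.935) was in the vehicle list only. The Psap peak and these Grn peaks, like those at the 3' ends of Lamp1 and Ctsb, were away from every TSS.

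Among 36 other genes of mTORC1 and AMPK signalling, 5 had a peak with vehicle (13.9%, beside 7.93% of all protein-coding genes) and 14 with FGF19 (38.9%, beside 16.3%). Akt1s1, which codes for the mTORC1 inhibitor PRAS40, had summits at the same base in both groups, with a pileup of 75 tags and a fold enrichment of 7.19 with vehicle and 47 tags and 4.96 with FGF19. A TSS of Tbc1d17 and one of Mir707 also lay within 1 kb of that base, so the peak could not be assigned to Akt1s1 alone. Nprl3 also had a peak in both groups (4.12 and 4.03), and with FGF19 Fnip1 (4.90) and Rragc (4.77) followed Akt1s1. The Rragc summit lay 93 bp from its own TSS and 84 bp from that of Gm12905. Rraga (3.19), Fnip2 (4.30) and Ddit4 (3.26) had a peak with vehicle only, the Fnip2 summit also within 1 kb of a TSS of 4930589L23Rik. Of the 6 AMPK subunit genes in the list, a set singled out after their values were seen, 5 had a promoter peak with FGF19 and none had a peak with vehicle. The shares of all protein-coding genes were 16.3% with FGF19 and 7.93% with vehicle. The fold enrichments were 3.19 at Prkaa1, 4.20 at Prkab1, 4.02 at Prkab2, 2.53 at Prkag1 and 4.41 at Prkag2. In the same order the -log10 q was 2.31, 5.01, 7.04, 2.23 and 5.94. The medians of the FGF19 list were 4.05 and 5.08. The Prkag2 summit lay 286 bp from its own TSS and 55 bp from that of 2900005J15Rik.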

How the data were processed

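SHP ChIP and input libraries of vehicle- and FGF19-treated mouse liver (3 mice pooled, 1 library each) were grouped by their sample labels. The authors mapped reads to mm9 with Bowtie 1.0.0, allowing up to 2 mismatches, and called peaks per group against its input with MACS2 2.0.10.20130501 (q-value cutoff 0.05, at most 1 tag per position and strand, tag extension 240 bp for vehicle and 260 bp for FGF19). The processing notes also name CASAVA 1.8.2. The deposited pileup is an unscaled signal, the deposited fold enrichment is a ratio of pileup plus 1 to local input background plus 1, and the deposited p-value and q-value, both as -log10, are the peak caller's own. The p-value was not used. The local background was worked out as (pileup + 1) / fold enrichment - 1.

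Peaks were assigned to GENCODE M1 genes, which use the same build, and to the TSS of 95495 annotated transcripts. The 7 mitochondrial peaks of the FGF19 list were left out of position, motif and median comparisons. Motif windows were 201 bp. The members, the list of 95 other pathway genes, the motifs and the named genes were chosen with earlier results of these data known. All members with a peak were named. Members with a peak in both groups, with vehicle only, or with the 5 highest or 3 lowest fold enrichments with FGF19 only were given in full. Of the other pathway genes, those in both groups, with vehicle only, and the 3 highest with FGF19 per list were named. The AMPK subunit genes were named outside this rule, after their values were seen. Sequence within 50 bp of a summit was printed for members with a peak in both groups and for the strongest promoter peak of each role, unless it held an annotated UTR base or lay on chromosome 18. No test was run, since each group is 1 library. The assignment functions were tested on simulated data. Alternatives changed the distance, the assignment, the thresholds, the list length, the overlap, the transcripts and the reference point. Python 3.11.15, numpy 2.4.6, scipy 1.17.1 and matplotlib 3.10.9 were used.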

Additional observations from a re-analysis of the deposited data

How the results depend on the processing

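Of 54 values under 12 alternatives, 43 stayed within 1.5 times the count, or within the 95% interval, given in the report. With a summit within 1 kb of the gene's own TSS, 4 members had a peak with vehicle, and 100% of FGF19 member peaks were near a TSS by construction. Without exon peaks away from every TSS, chosen after seeing the data, 5 members had a peak with vehicle, and Ctsb, Gabarapl1, Lamp1 and Sqstm1 were lost. With a minimum fold enrichment of 4, 8 members had a peak with vehicle and 11 with FGF19, beside 4.27% and 8.61% of all protein-coding genes. At that limit 7 members had one with FGF19 only and 4 with vehicle only. With the FGF19 list shortened to the length of the vehicle list, 9 members had a peak with FGF19, 5 with FGF19 only and 5 with vehicle only, and the median fold enrichment was 4.92. When peaks in both groups had to have summits within 100 bp, 7 members were vehicle only, since Atg5, Ctsb, Lamp1, Sqstm1 and Tfeb no longer matched. At equal list length as many members had a peak with FGF19 as with vehicle. The cut also brought all protein-coding genes to nearly equal shares, 8.02% with FGF19 and 7.93% with vehicle. It therefore cannot show whether SHP at the members differed between the groups. The counts in 1 list only were not worked out for all protein-coding genes under the alternatives, so they have no background. No paired analysis was possible because each group is 1 pooled library, and leaving out a replicate was not possible for the same reason. Pileups of 13 to 39 tags limit what can be said of any one gene, and the variation between mice is unknown.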
